A study of Sus scrofa with 24 samples.

Results

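Cholecystokinin (CCK), somatostatin (SS) and the glucagon-like peptide 1 receptor (GLP-1R) are 3 of the 26 target genes measured in jejunal and ileal mucosa, in healthy pigs and in pigs with post-natal growth retardation (PGR). They were taken by name from the 11 hormone-related genes of the panel, for their part in satiety and gut hormone signalling. By the accession numbers given with the assays, the 3 genes are CCK (gene ID 397468), SST (gene ID 494469) and GLP1R (gene ID 100154059) of the pig RefSeq annotation. The assays name no genome build, so no coordinates are given.

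The pigs were Duroc × Landrace × Large Yorkshire crosses that shared their paternal origin and their feed, and tissue was taken at 42 d of age after a night without feed. Healthy jejunum, PGR jejunum, healthy ileum and PGR ileum had 6 pigs each, and both tissues came from the same 12 pigs, which gave 24 samples. PGR was assigned by a low body weight in pigs without visible disease, with healthy pigs matched by litter, and not by a genotype or a treatment. Quantitative RT-PCR gave a Ct for each gene and sample, the number of cycles needed to reach a set fluorescence; a Ct lower by 1 cycle means about 2 times the starting template.

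The labels of 12 samples name 1 tissue in the title and the other in the tissue field, and the titles were used. The panel holds no gene that defines jejunum or ileum, so the tissue names could not be checked against such markers. Ghrelin (GHRL), a hormone gene that is most active in the stomach and upper gut, was looked at for this purpose after its values had been seen. Its Ct was 22.8 to 27.6 in the 12 samples with a jejunal title and 27.7 to 31.8 in the 12 with an ileal title, without overlap. Grouped by the tissue field, the GHRL ranges overlapped, with 22.8 to 31.6 for jejunum and 23.6 to 31.8 for ileum.

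CCK is the hormone of I cells in the upper small intestine, released by fat and protein in a meal, and it slows gastric emptying, empties the gallbladder and signals fullness through the vagus nerve. SS is made by D cells and by nerves of the gut wall and restrains the release of many gut hormones, CCK among them. GLP-1R receives GLP-1, an incretin of L cells; the panel measured the receptor and not the hormone. No general marker of hormone cells is among the 26 genes, and in scraped mucosa fewer cells of a type and less RNA per cell cannot be told apart.

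CCK and SS gave some of the lowest Ct values in the jejunal mucosa, and GLP-1R was near the other end of the panel. In healthy jejunum the CCK Ct was lowest at 18.7, median 19.2 and highest at 21.4 cycles (mean 19.5 ± 0.976 SD, n = 6). In PGR jejunum it was 19.1, 19.4 and 20.0 (mean 19.5 ± 0.401 SD, n = 6). The CCK values of both groups overlapped, and 1 healthy pig, pig 2, lay nearly 2 cycles above the next pig of its group. The ileal CCK Ct was 22.0, 22.4 and 23.0 in healthy pigs (mean 22.5 ± 0.355 SD, n = 6) and 22.1, 22.2 and 22.4 in PGR pigs (mean 22.2 ± 0.14 SD, n = 6). No ileal sample had a CCK Ct as low as any jejunal sample.

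For SS, whose product holds back other gut hormones, the jejunal Ct was 19.2, 19.8 and 20.0 in healthy pigs (mean 19.7 ± 0.323 SD, n = 6) and 19.0, 19.1 and 19.8 in PGR pigs (mean 19.2 ± 0.299 SD, n = 6). In PGR ileum it was 19.6, 19.8 and 20.6 (mean 19.9 ± 0.358 SD, n = 6). In healthy ileum the SS Ct was 20.2, 23.3, 20.2, 23.7, 20.2 and 20.4 for pigs 1 to 6 (mean 21.3 ± 1.70 SD, n = 6). Healthy pigs 2 and 4 thus stood about 3 cycles above the other 4, which lay close together. In the same 2 samples the Ct of CCK was 22.3 and 23.0 against 22.0 to 22.8 in the other 4 healthy pigs, and that of GLP-1R was 25.9 and 26.9 against 26.01 to 26.49. Pig 4 thus had the highest Ct of its group for all 3 genes, and pig 2 the lowest for GLP-1R.

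The receptor gene GLP-1R had the highest Ct of the 3. Its Ct was 25.4, 25.7 and 26.4 in healthy jejunum (mean 25.8 ± 0.374 SD, n = 6) and 25.4, 25.7 and 26.6 in PGR jejunum (mean 25.8 ± 0.443 SD, n = 6). The ileal Ct was 25.9, 26.1 and 26.9 in healthy pigs (mean 26.3 ± 0.380 SD, n = 6) and 26.1, 26.3 and 27.1 in PGR pigs (mean 26.4 ± 0.359 SD, n = 6). All 4 groups overlapped.

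**Figure D1:**
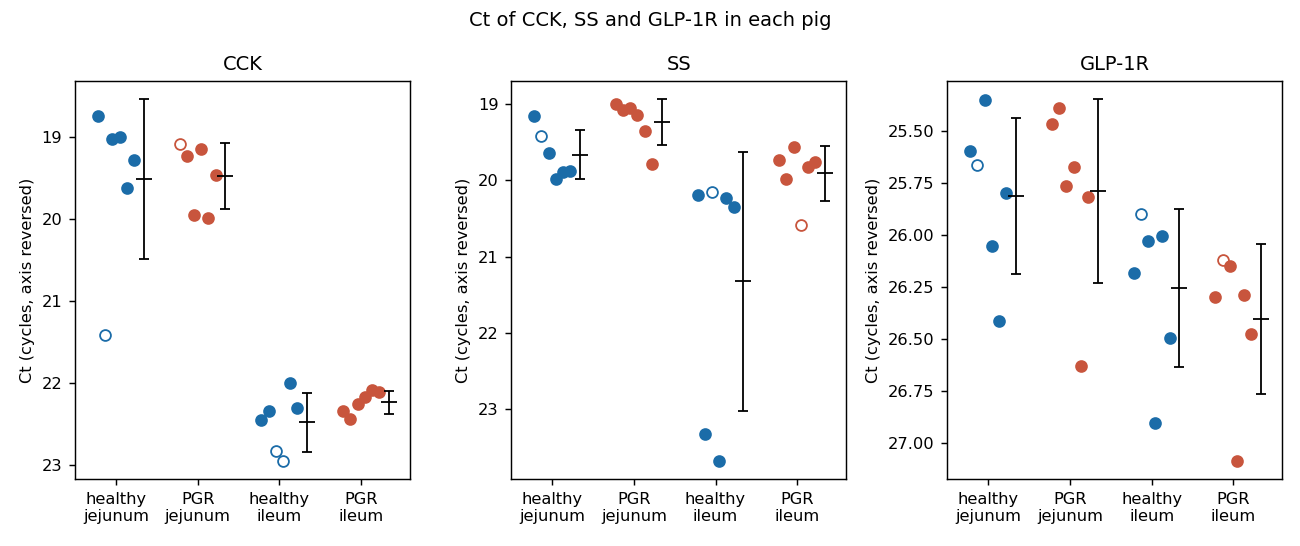
Ct in cycles of CCK, SS and GLP-1R (vertical axes, reversed so that more template is higher) for the 6 pigs of each of the 4 groups. Points are pigs in the order 1 to 6, open where the deposited level relative to β-actin is blank, and the bars beside them are the mean ± SD; CCK separates the tissues, and healthy ileal pigs 2 and 4 stand apart for SS at 23.3 and 23.7 cycles.

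Ordered by mean Ct from the most to the least template, CCK was at place 2 of 26 genes in healthy and in PGR jejunum. SS was at place 3 in healthy and at place 1 in PGR jejunum, next to CCK in both, and in either group the means of CCK and SS differed by less than the larger SD of the 2. GLP-1R was at place 23 in both groups. In the ileal mucosa, where 25 genes were ordered because the ileal TLR4 Ct equals the jejunal Ct in 12 of 12 pigs, CCK was at place 10 and GLP-1R at place 20 in both groups. SS was at place 7 in healthy and at place 2 in PGR ileum. The healthy ileal mean of 21.3 cycles includes the late pigs 2 and 4, and the median of that group was 20.3. Assays were not corrected for product length or efficiency, so these places and the ratios between genes are an index, and only their differences between samples were tested.

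The comparison of PGR with healthy pigs asked whether growth retardation goes with other levels of these genes in the gut mucosa. Levels relative to β-actin were deposited as 2 to the power of minus the Ct difference and are given multiplied by 1000. For the 3 genes, 10 of 72 levels were blank although their Ct was given. The means of the 2 growth groups were tested with an exact permutation test, two-sided, on every possible regrouping of the pigs that had a level, and p was adjusted over 52 comparisons by the method of Benjamini and Hochberg. A difference was called below a p of 0.05. Differences by Ct alone, given beside the levels, are not corrected for the amount of RNA put into each assay. They are thus not changes of expression free of input.

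For CCK, the satiety hormone, the jejunal levels of healthy pigs 1, 3, 4, 5 and 6 were 30.5, 20.4, 26.9, 13.4 and 32.9, and those of PGR pigs 2 to 6 were 21.5, 7.02, 16.4, 11.2 and 13.4. In all, 3 of the 5 PGR pigs lay below the lowest healthy pig, and the other 2 lay among the healthy pigs. The PGR mean was 0.561 ± 0.22 of the healthy mean of 1 ± 0.319 (SD, n = 5 and 5; exact permutation p = 0.0476, adjusted p = 0.0917), and p stayed under 0.05 in 2 of 10 fits with 1 pig left out. The 2 blank levels lay on the opposite sides of this difference. Recomputed from Ct and β-actin, the level of healthy pig 2 was 8.28 and that of PGR pig 1 was 27.1, and with both the PGR mean was 0.730 of the healthy mean (exact permutation p = 0.251, n = 6 and 6).

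The ileal CCK levels of healthy pigs 1, 2, 5 and 6 were 2.39, 2.58, 2.33 and 1.94, and those of PGR pigs 1 to 6 were 1.72, 1.76, 1.71, 2.09, 2.08 and 2.11. PGR pigs 1 to 3 lay below every healthy pig, and the others were among them. The PGR mean was 0.828 ± 0.0868 of the healthy mean of 1 ± 0.115 (SD, n = 6 and 4; exact permutation p = 0.0381, adjusted p = 0.0897), and p stayed under 0.05 in 4 of 10 fits with 1 pig left out. The blank levels of healthy pigs 3 and 4 came to 1.81 and 6.26 when recomputed, and with both the PGR mean was 0.663 of the healthy mean (exact permutation p = 0.0541, n = 6 and 6). The 6.26 of pig 4 carries a β-actin Ct of 15.6, against at most 13.7 in the other healthy pigs. Its CCK Ct of 23.0 was the highest of its group. Without β-actin the direction for CCK was the other way in the ileal mucosa, since the mean Ct of PGR pigs was lower by 0.246 cycles in 6 against 6 pigs and within the spread between pigs (−0.246 cycles, exact permutation p = 0.160). Without β-actin but over the same 5 and 5 pigs, jejunal CCK in PGR pigs was 0.754 of the healthy mean (exact permutation p = 0.103). With the 2 pigs of the blank levels added, the jejunal Ct difference was −0.0372 cycles (exact permutation p = 0.955, n = 6 and 6).

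For SS, the D cell hormone, the jejunal levels were 11.2, 13.7 and 23.0 (lowest, median, highest) in 5 healthy pigs and 10.7, 17.0 and 29.0 in 6 PGR pigs. Of the PGR pigs, 2 lay above and 1 below all healthy pigs, and 3 lay among them. The PGR mean was 1.12 ± 0.415 of the healthy mean of 1 ± 0.325 (SD, n = 6 and 5; exact permutation p = 0.619, adjusted p = 0.671), and 0.957 of it when the blank of healthy pig 2 was recomputed as 33.0. By Ct alone, SS in PGR jejunum came 0.43 cycles earlier than in healthy jejunum (−0.43 cycles, exact permutation p = 0.0411, adjusted p = 0.178, n = 6 and 6), with 4 PGR pigs below every healthy pig.

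The ileal SS levels of healthy pigs 1, 2, 4, 5 and 6 were 11.4, 1.29, 3.75, 7.94 and 7.55, and those of PGR pigs 1, 2, 3, 5 and 6 were 10.5, 9.71, 11.05, 9.96 and 10.8. All 5 PGR pigs fell inside the healthy range, below healthy pig 1 and above the other 4 healthy pigs. The PGR mean was 1.63 ± 0.0875 of the healthy mean of 1 ± 0.616 (SD, n = 5 and 5; exact permutation p = 0.0476, adjusted p = 0.0917), and p stayed under 0.05 in 1 of 10 fits with 1 pig left out. The blank level of PGR pig 4 came to 6.28 when recomputed and that of healthy pig 3 to 11.5, and with both the PGR mean was 1.34 of the healthy mean (exact permutation p = 0.206, n = 6 and 6). By Ct alone the difference was −1.42 cycles (exact permutation p = 0.0260, adjusted p = 0.146, n = 6 and 6), with the 2 high healthy values in it.

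For GLP-1R, the receptor, the jejunal levels were 0.367, 0.489 and 0.641 (lowest, median, highest) in 5 healthy pigs and 0.216, 0.355 and 0.508 in 6 PGR pigs. Of the PGR pigs, 3 lay below every healthy pig. The PGR mean was 0.714 ± 0.224 of the healthy mean of 1 ± 0.225 (SD, n = 6 and 5; exact permutation p = 0.0671, adjusted p = 0.116), and 1.04 of it when no reference was used. In the ileal mucosa the levels of healthy pigs 1, 3, 4, 5 and 6 were 0.226, 0.274, 0.169, 0.243 and 0.235, and those of PGR pigs 1, 3, 4, 5 and 6 were 0.183, 0.196, 0.106, 0.149 and 0.133. Here 3 of the 5 PGR pigs lay below the lowest healthy pig. The PGR mean was 0.668 ± 0.160 of the healthy mean of 1 ± 0.166 (SD, n = 5 and 5; exact permutation p = 0.0238, adjusted p = 0.0728), and p stayed under 0.05 when any 1 pig was left out. By Ct alone GLP-1R differed in the jejunum by −0.0228 cycles (exact permutation p = 0.926) and in the ileum by 0.15 cycles (exact permutation p = 0.491), with the jejunal direction turned.

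Set against the whole panel, the unadjusted p of 1 of the 3 genes was under 0.05 in jejunal mucosa, where 13 of 26 genes or 50% were called, and for 3 of the 3 in the ileal mucosa, where 14 of 26 or 53.8% were called. After adjustment by the exact permutation test 0 of 52 comparisons or 0% were called, and by limma on log2 levels 3 were, IGF-1 in both tissues and GHR in the jejunal mucosa. The same exact permutation test on Ct alone over every pig also called 3 of 52 after adjustment, GHR in the jejunum and MyD88 and P70S6K in the ileum, and none of the 3 genes. By Ct alone over every pig, SS was the only one of the 3 with p under 0.05 in either tissue, against 7 of 26 genes or 26.9% in the jejunal and 5 of 26 or 19.2% in the ileal mucosa. The direction of the called genes shifted as well. In the ileum 13 were lower and 1 higher in PGR pigs with β-actin, 2 lower and 5 higher without it over the same pigs, and 0 lower and 5 higher over every pig, with SS, IL-4, MyD88, 4EBP1 and P70S6K higher. In the jejunum 13 lower and 0 higher became 3 lower and 3 higher over the same pigs and 4 lower and 3 higher over every pig, with SS, Akt and P70S6K higher.

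Every level above carries a β-actin reading, which was recovered as the Ct of the gene plus the log2 of its level. CCK and SS shared 1 set of β-actin readings with 9 other genes, and GLP-1R had a set of its own. In the set of CCK and SS the β-actin Ct of PGR minus healthy pigs was, for the jejunum, −0.470 cycles (exact permutation p = 0.0952, n = 6 and 6) and, for the ileum, −0.701 cycles (exact permutation p = 0.00866, n = 6 and 6). Healthy ileal pig 4 had a reading of 15.6 cycles against at most 13.7 in the other healthy pigs, and without it the ileal difference was −0.353 cycles (exact permutation p = 0.00866, n = 5 and 6). In the set of GLP-1R the jejunal difference was −0.570 cycles (exact permutation p = 0.0152, n = 5 and 6) and the ileal one −0.464 cycles (exact permutation p = 0.00794, n = 5 and 5). An earlier β-actin in PGR pigs lowers the levels relative to it, and why it came earlier was not tested. Leaving out ileal TLR4, 6 of 7 sets had the earlier β-actin in PGR pigs, and in the ileal readings behind IL-8 and IL-1β it came later by 0.425 cycles (exact permutation p = 0.392, n = 6 and 6).

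Over the same pigs and as means of log2 values, the median difference of PGR from healthy pigs over 26 genes was −0.59 with β-actin and −0.04 with Ct alone in jejunal mucosa, and −0.43 and 0.06 in ileal mucosa. With Ct alone over every pig, blanks included, the medians were 0.17 and 0.21. Measured from the median over the same pigs, jejunal CCK was at −0.27 with β-actin and −0.38 with Ct alone, and ileal CCK at 0.15 and −0.02. Jejunal SS was above the median by 0.72 and 0.52, and ileal SS by 1.46 and 1.73. Jejunal GLP-1R was at 0.07 and 0.09 and ileal GLP-1R at −0.17 and −0.19. With Ct alone over every pig, jejunal GLP-1R turned to −0.15, ileal GLP-1R was at −0.36 and jejunal SS at 0.26. SS was thus the one of the 3 genes that lay furthest above the panel median in both tissues, with β-actin and with Ct alone. The ileal SS values include healthy pigs 2 and 4, with a Ct of 23.3 and 23.7. The distances from the median were not taken without them.

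The comparison of the tissues within each pig asked where along the small intestine the genes were more abundant. For CCK, the jejunal minus ileal log2 level was 3.67, 2.53 and 4.08 in healthy pigs 1, 5 and 6 and 3.61, 2.04, 2.97, 2.43 and 2.66 in PGR pigs 2 to 6. All 8 pigs with both levels were higher in the jejunum. The mean of 3.00 ± 0.71 (SD, n = 8) is an 8.0-fold higher level in the jejunal mucosa (exact sign-flip permutation p = 0.00781, adjusted p = 0.0130 over 25 genes). By Ct, which 12 of 12 pigs have, the difference was 2.86 cycles and every pig had the lower Ct in the jejunum, with the least, 0.927 cycles, in healthy pig 2 (exact sign-flip permutation p = 0.000488, the smallest that 12 pigs allow).

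For SS the contrast was 1.01, 1.87, 0.49 and 1.53 in healthy pigs 1, 4, 5 and 6 and 1.47, 1.31, 0.25, 0.81 and −0.01 in PGR pigs 1, 2, 3, 5 and 6. The level was higher in the jejunum in 8 of 9 pigs, and PGR pig 6 had nearly equal levels. The mean was 0.97 ± 0.64 (SD, n = 9), a 1.96-fold higher jejunal level (exact sign-flip permutation p = 0.00781, adjusted p = 0.0130). For GLP-1R the contrast was 0.59, 1.11 and 1.45 (lowest, median, highest) in 5 healthy pigs and 0.14, 1.23 and 1.91 in 5 PGR pigs, and all 10 pigs had the higher level in the jejunum. Its mean was 1.11 ± 0.50 (SD, n = 10), a 2.17-fold higher jejunal level with β-actin (exact sign-flip permutation p = 0.00195, adjusted p = 0.00888) that turned to −0.30 with the mean Ct of 25 targets as reference. The size depended on the β-actin readings as well, with 0.60 for GLP-1R with those of CCK and SS (permutation p = 0.0278 over all sign flips, n = 12). By Ct alone it was 0.53 (permutation p = 0.00732 over all sign flips, n = 12), and healthy pig 5 and PGR pig 5 had the lower Ct in the ileum, at −0.41 and −0.34 cycles.

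**Figure D2:**
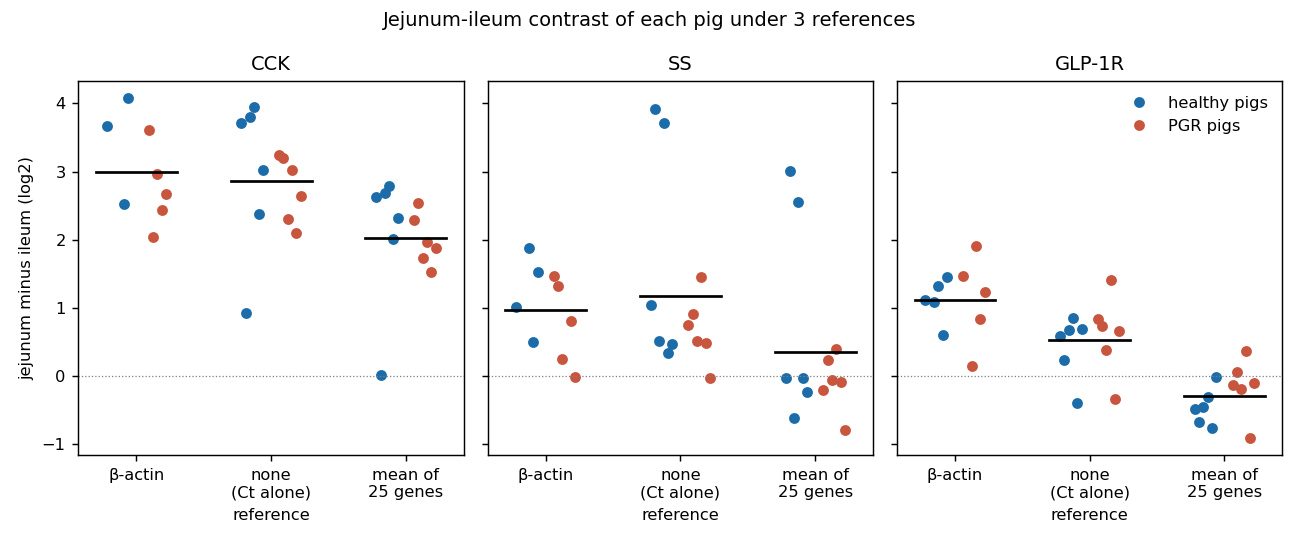
Jejunal minus ileal log2 difference (vertical axis) of CCK, SS and GLP-1R with β-actin, no reference or the mean Ct of 25 target genes as the reference (horizontal axis). Points are pigs, fewer with β-actin because of blank levels, and bars are means over pigs of both growth groups; CCK stays above 0 with means of 3.00, 2.86 and 2.03, while GLP-1R goes from 1.11 to −0.30 and the SS mean of 0.34 under the last reference rests on healthy pigs 2 and 4.

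Most of the panel shared the direction: 20 of 25 genes or 80% were called after adjustment, 16 higher in the jejunum and 4 lower, and the 3 genes are 3 of the 20. Over the 25 genes the median contrast was 0.74 with β-actin, 0.35 with Ct alone over the same pigs and −0.48 with the mean Ct of the 25 targets as reference. Ordered from the most jejunal to the most ileal gene, CCK was at place 4 of 25, after GHRL, HO-1 and SERT, with GLP-1R at place 9 and SS at place 10. Against the mean Ct of the 25 genes, CCK kept a mean contrast of 2.03 in 12 pigs (exact sign-flip permutation p = 0.000488). With that reference SS was at 0.34 (exact sign-flip permutation p = 0.441) and below 0 in 8 of 12 pigs, and healthy pigs 2 and 4 alone were above 0.4, at 3.01 and 2.55. GLP-1R then was at −0.30 (exact sign-flip permutation p = 0.0176, n = 12), which is still above the median gene at −0.48, so its sign depends on how the panel is centred.

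The contrast was also taken in each growth group. In healthy pigs it was 3.43 ± 0.81 for CCK (SD, n = 3), 1.23 ± 0.60 for SS (SD, n = 4) and 1.11 ± 0.33 for GLP-1R (SD, n = 5). In PGR pigs it was 2.74 ± 0.59 for CCK, 0.77 ± 0.65 for SS and 1.12 ± 0.67 for GLP-1R (SD, n = 5 each). With 5 pigs or fewer, sign flips cannot give a p below 0.0625, so the groups are not called on their own. The contrast of PGR minus that of healthy pigs was −0.68 for CCK (exact permutation p = 0.232), −0.46 for SS (exact permutation p = 0.302) and 0.0060 for GLP-1R (exact permutation p = 0.976). With 1 pig left out it was −1.13 to −0.36 for CCK and −0.70 to −0.24 for SS, and with the blanks recomputed it turned to 0.022 for CCK (exact permutation p = 0.974, n = 6 and 6). For GLP-1R it was 0.17 with Ct alone and 0.30 with the mean Ct over every pig (exact permutation p = 0.569 and 0.171). With the β-actin readings of CCK and SS it was 0.40 for GLP-1R (exact permutation p = 0.416, n = 6 and 6). Thus 0 of the 3 differed between the growth groups by unadjusted p, against 2 of 25 genes or 8%, SERT and Akt.

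The balance of CCK and SS, a meal hormone and its brake, was followed within each sample as the Ct of SS minus the Ct of CCK, a log2 ratio that needs no β-actin and uses every pig. In the jejunal mucosa it was 0.41, −1.997, 0.62, 0.97, 0.27 and 0.60 in healthy pigs 1 to 6 and −0.10, −0.17, −0.90, −0.01, −0.64 and 0.32 in PGR pigs 1 to 6. Healthy pigs other than pig 2 had an index above 0, while 5 of 6 PGR pigs were below 0, and only PGR pig 6 reached the values of the 5 healthy pigs. The mean was 0.14 ± 1.08 in healthy and −0.25 ± 0.45 in PGR pigs (SD, n = 6 each), a difference of −0.39 within the spread (exact permutation p = 0.459, adjusted p = 0.769 over 650 pair comparisons). Healthy pig 2 decided this value, since without it the difference was −0.82 (exact permutation p = 0.00649, n = 5 and 6). It was the only 1 of 12 fits with 1 pig left out that had p under 0.05. Over the pigs with both deposited levels, which leave that pig out as well, it was −0.85 (exact permutation p = 0.0159, n = 5 and 5).

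In the ileal mucosa the CCK-to-SS ratio was −2.26, 1.00, −2.67, 0.74, −1.77 and −1.96 in healthy pigs 1 to 6 and −2.60, −2.46, −2.69, −1.59, −2.26 and −2.35 in PGR pigs 1 to 6. Healthy pigs 2 and 4, the pigs with the late SS, were the only ileal samples above 0, and the other 4 healthy pigs overlapped the PGR pigs. The mean was −1.15 ± 1.60 in healthy and −2.33 ± 0.40 in PGR pigs (SD, n = 6 each), a difference of −1.17 (exact permutation p = 0.121, adjusted p = 0.404). Healthy pigs 2 and 4 carried this difference, which was −0.74 without pig 2 (exact permutation p = 0.199, n = 5 and 6) and −0.79 without pig 4 (exact permutation p = 0.195, n = 5 and 6). Without healthy pig 3 it was −1.48 (exact permutation p = 0.0260, n = 5 and 6), the only 1 of 12 such fits with p under 0.05. Over the pigs with both deposited levels it was −1.23 (exact permutation p = 0.00794, n = 4 and 5). That leaves out healthy pigs 3 and 4, at −2.67 and 0.74, and PGR pig 4, at −1.59. In blocks by pig number, which the labels do not tie to litters, the difference of −1.17 had an exact permutation p of 0.0313 (6 pairs). This is the smallest p that 6 pairs allow. The jejunal difference of −0.39 had an exact permutation p of 0.469 in such blocks (6 pairs).

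**Figure D3:**
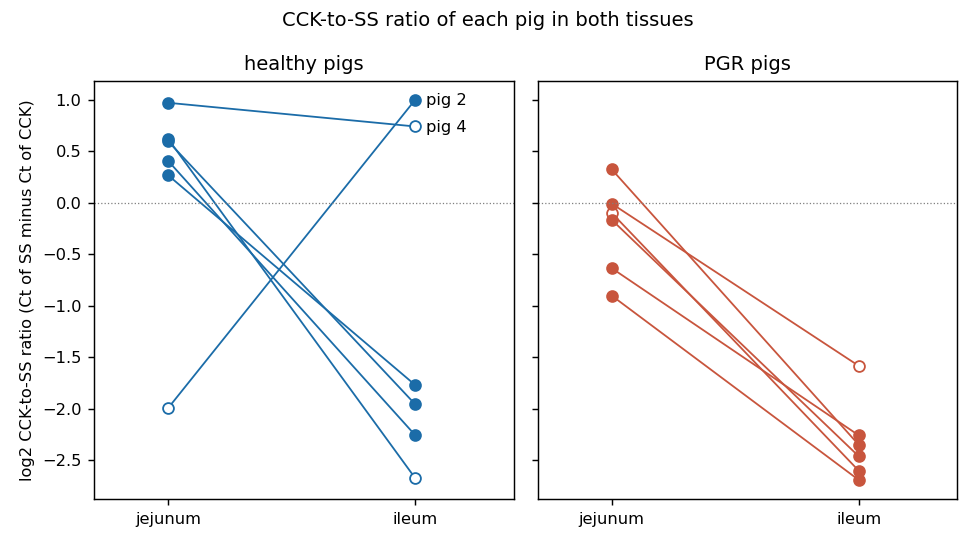
Log2 CCK-to-SS ratio (vertical axis, Ct of SS minus Ct of CCK) in the jejunum and ileum (horizontal axis) of 6 healthy and 6 PGR pigs. Each line joins the samples of 1 pig, and open points have a blank deposited level of CCK or SS; all PGR lines and 5 of 6 healthy lines run downward, and healthy pig 2 runs from −1.997 to 1.00.

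The CCK-to-SS ratio was also compared between the tissues of each pig. Jejunum minus ileum was 1.69 ± 1.66 over 12 pigs (SD, n = 12; permutation p = 0.0103 over all sign flips, adjusted p = 0.0159 over 300 pairs), a 3.22-fold shift toward CCK in the jejunum, and 11 of 12 pigs had it. In PGR pigs the contrast was 2.08 ± 0.47 (SD, n = 6; exact sign-flip permutation p = 0.0313, the smallest that 6 pigs allow, adjusted p = 0.0910) and in healthy pigs 1.30 ± 2.35 (SD, n = 6; exact sign-flip permutation p = 0.281, adjusted p = 0.328). The growth groups differed in it by 0.78 (exact permutation p = 0.543, adjusted p = 0.803), and without healthy pig 2 by −0.08 (exact permutation p = 0.896). The contrast of healthy pigs was 0.898 to 2.16 with 1 pig left out, and highest without pig 2.

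The 2 pairs with GLP-1R set a hormone against a receptor of another hormone. The log2 CCK-to-GLP-1R ratio was 6.30 ± 1.03 in healthy and 6.31 ± 0.30 in PGR jejunum and 3.77 ± 0.36 in healthy and 4.17 ± 0.44 in PGR ileum (SD, n = 6 each). Its growth difference was 0.01 for the jejunum (exact permutation p = 0.987) and 0.40 for the ileum (exact permutation p = 0.117), both within the spread. The ileal value was 0.246 to 0.494 with 1 pig left out, lowest without PGR pig 4. In blocks by pig number its exact permutation p was 0.0313 (6 pairs), the smallest possible, and the jejunal difference was not called. Healthy pig 2 set the jejunal value, which was −0.39 without it (exact permutation p = 0.0541, n = 5 and 6) and −0.41 over the pigs with both levels (exact permutation p = 0.0794, n = 5 and 5). The SS-to-GLP-1R ratio was 6.15 ± 0.31 in healthy and 6.56 ± 0.42 in PGR jejunum (SD, n = 6 each; exact permutation p = 0.0801). From the deposited levels the jejunal difference was 0.65 (exact permutation p = 0.0216, n = 5 and 6), against 0.41 by Ct. In blocks by pig number the Ct difference had an exact permutation p of 0.0313 (6 pairs). For the ileum the SS-to-GLP-1R ratio was 5.99, 2.56, 5.87, 3.21, 5.78 and 6.14 in healthy pigs 1 to 6 and 6.14, 6.53 and 6.72 (lowest, median, highest) in the 6 PGR pigs. All but 1 of the PGR pigs lay above every healthy pig, and healthy pigs 2 and 4 lay far below the rest. The difference of 1.57 had an exact permutation p of 0.00433 and an adjusted p of 0.0879 (n = 6 and 6). Leaving out any 1 pig gave 1.10 to 1.81 with p under 0.05. These fits always keep healthy pig 2 or pig 4, so they cannot show the size without both, which was not taken. From the deposited levels it was 0.977 (exact permutation p = 0.0286, n = 4 and 4). In blocks by pig number the ileal difference of 1.57 had an exact permutation p of 0.0313 (6 pairs).

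Among all pairs of the 26 genes, 70 of 325 or 21.5% had an unadjusted p under 0.05 in the jejunal mucosa, against 0 of the 3 pairs here, and 63 of 325 or 19.4% in the ileal mucosa, against 1 of the 3. Between the tissues, 219 of 300 pairs or 73% were called after adjustment, and 2 of the 3 pairs were, CCK to SS and CCK to GLP-1R. The CCK-to-GLP-1R contrast was 2.33 ± 0.71 (SD, n = 12; permutation p = 0.000488 over all sign flips, adjusted p = 0.00165) and the SS-to-GLP-1R contrast 0.65 ± 1.31 (SD, n = 12; permutation p = 0.108 over all sign flips). The difference of the contrast between growth groups was called by unadjusted p for 25 of 300 pairs or 8.33%, and for 0 of the 3.

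The other 8 hormone-related genes of the panel were growth factor, appetite and serotonin genes. In the jejunal mucosa their levels in PGR pigs had a median of 0.539 of the healthy mean, from 0.293 for GHR to 0.810 for INSR, and 4 of 8 were lower by unadjusted exact permutation p, against 13 of 26 genes in all. Ileal levels had a median of 0.635, from 0.298 for SERT to 0.968 for IGF-1R, and 5 of 8 were lower, against 13 of 26. Over all 26 genes the medians were 0.643 and 0.747, and SS in the ileal mucosa was the only gene called higher in PGR pigs in either tissue with β-actin, while by Ct alone it was 1 of several. By Ct alone over every pig, 0 of 26 genes were lower in the ileum, and thus 0 of these 8. In the jejunum IGF-1, GHRL and GHR of the 8 were lower, against 4 of 26 genes. Between the tissues 6 of the 8 were higher in the jejunum after adjustment and 0 lower, against 16 and 4 of 25, with a median log2 contrast of 1.30, from 0.01 for AgRP to 6.02 for GHRL.

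The genes whose Ct varied most like each member were found over the 24 samples, as deviations from the group mean of the Ct minus the mean Ct of the target genes. These points share the mean Ct that was subtracted and, in pairs, the pig. CCK was most like Akt (Pearson r = 0.40, Spearman rho = 0.11, n = 24) and mTOR (r = 0.35, rho = 0.26, n = 24), and without the 2 samples farthest in CCK r was 0.20 and 0.14, below the 0.38 of GLP-1R and the 0.36 of P70S6K. SS was most like IL-8 (r = 0.19, rho = 0.07, n = 24) and GLP-1R (r = 0.17, rho = 0.29, n = 24), weak values that were 0.11 and 0.34 without the 2 samples farthest in SS. GLP-1R was most like INSR (r = 0.44, rho = 0.40, n = 24) and SERT (r = 0.42, rho = 0.39, n = 24), with 0.34 and 0.35 without the 2 farthest samples, below the 0.40 of P70S6K. CCK and SS were not alike within groups (r = −0.02, n = 24).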

How the data were processed

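Per the labels, mucosa of the jejunum and ileum of 12 pigs was assayed by quantitative RT-PCR in triplicate wells, and the authors deposited a Ct per gene and sample and a ratio of each gene to β-actin, 2 to the power of minus the Ct difference. A Ct carries no sequencing depth, and the spread between wells was not used here. Without a reference, a Ct also follows the amount of RNA put into the assay, for which Ct alone was not corrected. The 12 deposited columns of fold values hold the authors' own comparison and were not used. Samples were grouped by title, although the tissue field of 12 samples differs from the title. That the tissues with the same growth group and number come from 1 pig was taken from the titles; within a group, jejunum and ileum of the same pig correlated at −0.627 to 0.503 over the genes, above 0.1 in 5 of 12 pigs.

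The β-actin Ct was recomputed as the Ct plus the log2 of the level, which gave 3 sets of genes with shared readings in the jejunum and 5 in the ileum. Of the 10 blank levels of the 3 genes, 7 could be recomputed from the readings of the other genes of the set and were used only as an alternative; the 3 of GLP-1R, alone in its set, could not. The ileal TLR4 Ct equals the jejunal Ct in 12 of 12 pigs, so TLR4 was left out of comparisons of the tissues and of likeness. It was kept among the 26 genes and 325 pairs of the ileal growth comparisons, where TLR4 itself was not called (exact permutation p = 0.675). PGR and healthy pigs were compared by exact permutation of linear levels scaled to the healthy mean, tissues by exact sign flips of log2 differences within pigs, and ratios of genes by Ct differences. P was adjusted by the method of Benjamini and Hochberg over 52 comparisons of growth groups, 25 of tissues, 650 pairs of genes between growth groups and 300 between tissues.

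Alternatives were log2 levels, rank sums, limma, blocks by pig number, Ct alone, the mean Ct of target genes as reference, recomputed blanks and leaving out each pig; the use of every pig with Ct alone or with the mean Ct, and the β-actin set of CCK and SS for GLP-1R, were added after the values had been seen. Named genes are the 3 members, their neighbours in likeness, and the ends and called exceptions of each list; GHRL was chosen after its values were seen. The members and lists were chosen with earlier results of these data known. Gene names were taken from the RefSeq annotation of Sscrofa11.1 by assay accession, and 25 of 26 assays matched; the accession of the assay named IL-4 belongs to IL4R there. Tests ran in Python 3.11.15 with numpy 2.4.6 and pandas 2.3.3, figures were drawn with matplotlib 3.10.9, the limma alternative used limma 3.58.1 under R 4.3.3, and the scripts were tested on simulated data.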

Additional observations from a re-analysis of the deposited data

Results flagged for a closer look

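In groups of 6 pigs, a pig was picked out where its gap to the nearest other pig was too large a part of the range by Dixon's criterion, which chance meets in about 1 in 20 groups; 6 of 51 groups tested had such a pig. Healthy pig 2 had a jejunal CCK Ct of 21.4 against 19.6 in the next pig. The same sample therefore had the lowest jejunal CCK-to-SS log2 ratio of its group, −1.997 against 0.27 in the next pig, and the lowest CCK-to-GLP-1R log2 ratio, 4.25 against 6.33. For GLP-1R, PGR pig 5 had a jejunal Ct of 26.6 against 25.8 in the next pig, and PGR pig 4 an ileal Ct of 27.1 against 26.5. The β-actin Ct behind ileal CCK and SS was 15.6 in healthy pig 4 against 13.7 in the next pig. Of the 7 recomputed levels (×1000) that the authors left blank, 4 lay above and 3 below every deposited level of their group, and 3 lay above every deposited level of healthy pigs in their tissue. These were ileal CCK of healthy pig 4 at 6.26 against 2.58, ileal SS of healthy pig 3 at 11.5444 against 11.4118, and jejunal SS of healthy pig 2 at 33.0 against 23.0. The other 1 above its group was jejunal CCK of PGR pig 1, at 27.1 against 21.5. Why these levels were left blank was not tested.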

How the results depend on the processing

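Of 208 values under alternatives, 124 kept their direction and their side of the threshold or, for counts of genes, stayed near the main count. Of the rest, 23 were weaker, 26 stronger, 13 moved and 22 reversed. With 1 pig left out, 285 of 332 values were kept. A kept count could still differ, as with 9 jejunal genes by rank sums against 13. Where a value was not kept, the cause was not tested beyond the alternative itself. Some of the values could not change: no blank of GLP-1R could be recomputed, and sign flips of 5 pigs or fewer cannot give a p under 0.05. The 13 jejunal genes with unadjusted p under 0.05 became 1 with blocks by pig number, 6 with Ct alone, 6 with the mean Ct of target genes as reference, 5 with blanks recomputed, and 7 and 8 with Ct alone and the mean Ct over every pig. They were 8 to 16 with 1 pig left out, with 8 without PGR pig 5. The 14 ileal genes became 9 by rank sums, 2 with blocks, 7 with Ct alone, 5 with the mean Ct, 8 with blanks recomputed, and 5 and 6 over every pig, and 8 to 13 with 1 pig left out, with 9 without PGR pig 1 and 8 without PGR pig 2. Jejunal CCK in PGR pigs, 0.561 of healthy, was 0.561 by rank sums (exact permutation p = 0.0556), 0.514 with blocks, 0.754 with Ct alone, 0.820 with the mean Ct, 0.730 with blanks recomputed, and 0.919 and 0.968 over every pig. It was 0.484 to 0.630 with 1 pig left out, under p of 0.05 only without healthy pig 5 or PGR pig 2. Jejunal SS was 1.38 with Ct alone, 1.46 with the mean Ct and 1.34 and 1.41 over every pig, all with p under 0.05, and turned to 0.957 with blanks recomputed; it was 0.989 (without PGR pig 1) to 1.24. Jejunal GLP-1R turned to 1.04 with Ct alone, 1.08 with the mean Ct and 1.02 and 1.06 over every pig, and was 0.654 to 0.771 with 1 pig left out, under p of 0.05 without PGR pig 1 or healthy pig 5. Ileal CCK was 0.828 by rank sums (exact permutation p = 0.0667), 0.8288 by limma, 0.831 with blocks and 0.663 with blanks recomputed, all past p of 0.05, and turned to 1.025 with Ct alone, 1.09 with the mean Ct and 1.16 and 1.14 over every pig. With 1 pig left out it was 0.787 to 0.862, past p of 0.05 without PGR pig 1, 2 or 3 or healthy pig 1, 2 or 5. Ileal SS was 1.63 by rank sums (exact permutation p = 0.151), 2.05 by limma, 1.45 with blocks and 1.34 with blanks recomputed, all past p of 0.05, and 1.36 to 2.03 with 1 pig left out, under it only without healthy pig 1. Ileal GLP-1R was 0.668 with blocks, 0.908 with Ct alone, 0.846 with the mean Ct, and 0.898 and 0.856 over every pig, all past p of 0.05. For the 3 genes blocks had 4 or 5 pairs, whose smallest possible p is 0.125 or 0.0625. Pigs of the same number in the growth groups correlated at −0.354 to 0.320, above 0.1 in 5 of 12 pairs. The labels do not tie these numbers to litters, so the number was not taken as a pairing. The tissues of 1 pig were also above 0.1 in only 5 of 12, so the correlations cannot decide whether the numbers stand for litters. Jejunum minus ileum in both growth groups together with the mean Ct was 0.15 for SS over 9 pigs and 0.34 over 12, and turned to −0.30 for GLP-1R over 10 pigs and over 12. In healthy pigs, CCK was 2.93 with blanks recomputed, 3.36 without pairing by pig, and 2.96 and 2.07 over every pig with Ct alone and the mean Ct, SS was 1.63, 1.65 and, with Ct alone over every pig, 1.67, and GLP-1R was 1.11 without pairing, all with p under 0.05, while GLP-1R turned to −0.41 with the mean Ct and −0.45 over every pig. In PGR pigs, CCK was 2.95, 2.77, 2.76 and 1.99 in the same order, SS 0.75 and GLP-1R 1.19 without pairing, all with p under 0.05, and with the mean Ct SS turned to −0.18 and −0.088 over every pig and GLP-1R to −0.20 and −0.15. The difference of the contrast between growth groups turned to 0.022 for CCK with blanks recomputed, and for GLP-1R was −0.19 to 0.25 with 1 pig left out, negative without healthy pig 3 or 5 or PGR pig 1, 4 or 6. The growth difference of the jejunal CCK-to-SS log2 ratio was −0.85 over pigs with both deposited levels, and the same from the deposited levels because the shared β-actin cancels, and −0.82 to −0.23 with 1 pig left out. In the ileum it was −1.23 by either and −1.17 with blocks (exact permutation p = 0.0313, 6 pairs), and −1.48 to −0.74 with 1 pig left out. Jejunal CCK to GLP-1R turned to −0.41 over pigs with both levels, −0.23 from the deposited levels and −0.18 on the linear scale, and was −0.39 to 0.16 with 1 pig left out, negative without healthy pig 2 or PGR pig 4 or 5; in the ileum it was 0.40 with blocks (exact permutation p = 0.0313). Jejunal SS to GLP-1R was 0.65 from the deposited levels (exact permutation p = 0.0216) and 0.41 with blocks (exact permutation p = 0.0313), and 0.26 to 0.51 with 1 pig left out, under p of 0.05 without PGR pig 6. The CCK-to-SS contrast of PGR pigs was 2.10 over the pigs with both levels and 1.96 to 2.18 with 1 pig left out, where 5 pigs allow no p under 0.0625, and its difference between growth groups turned to −0.32 over pigs with both levels and was −0.078 (without healthy pig 2) to 1.18. Groups of 6 pigs limit all comparisons, and blank levels and a single reference gene those of levels; a Ct has no measured background here.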

Other observations

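Of the 24 other genes compared, which leave out TLR4, IGF-1R had the Ct least like that of SS within groups after the mean Ct of the target genes was subtracted (Pearson r = −0.66, Spearman rho = −0.48, n = 24), and without the 2 samples farthest in SS r was −0.41. This pair was chosen after its values were seen, and its points share the subtracted mean and, in pairs, the pig.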
